A study of Mus musculus with 6 samples.

Results

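The nuclear genome encodes most subunits of the mitochondrial respiratory chain, and open chromatin at these genes was examined in hematopoietic stem cells with floxed Dek, with and without a Cre transgene. The set holds the protein-coding genes on chromosomes 1 to 19 and X whose symbol begins with Nduf, Sdh followed by a to d, Uqcr, Cox4 to Cox8 or Atp5. It counts 100 of the 21627 protein-coding genes of the mm10 RefSeq table used here. The rule uses symbols and no measured value. A further 19 symbols with these beginnings are not protein-coding in the table and were left out.

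The assay was ATAC-seq: the transposase Tn5 inserts sequencing adapters wherever DNA is open. The cells were hematopoietic stem cells sorted from bone marrow of C57BL/6 mice aged 3 months (12 weeks) in homeostasis, as Lin-Sca-1+c-Kit+CD48-CD150+ cells, with about 20000 cells per library. The group labelled Dek_fl carries Dek fl/fl, and the group labelled Dek_cKO carries Dek fl/fl,Tie2-Cre, so both groups share the floxed allele and differ by the Cre transgene. The Tie2 promoter drives Cre in blood and endothelial cells from early development, so the deletion is not limited to the adult stem cell. There were 3 libraries per group. No source used here says that the libraries of a group came from separate animals, so the spread between them may be technical.

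The respiratory chain transfers electrons from NADH through complex I, or from succinate through complex II, to ubiquinone, then through complex III and cytochrome c to complex IV, which reduces oxygen. The protons pumped on the way drive ATP synthesis by complex V. Long-term hematopoietic stem cells are known for low mitochondrial activity and a reliance on glycolysis at rest, and for a rise in respiration when they are activated. The promoters of the nuclear genes of the chain are known for binding sites of NRF1, of the ETS factor GABP and of YY1.

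The sequences below carry the results on where the open chromatin lies. They are the 250 bases before the RefSeq start site (table build GRCm38.p6, which is mm10), 5′ to 3′ on the gene's strand, with capitals marking matches to the motifs described further on. Cox5a, Cox7a2 and Atp5d are shown because their starts lie deep inside the annotated gene, where a window around the gene's ends misses them. They map to chr9:57520982-57521231 (plus strand), chr9:79759854-79760103 (minus strand) and chr10:80142025-80142274 (plus strand).
Cox5a: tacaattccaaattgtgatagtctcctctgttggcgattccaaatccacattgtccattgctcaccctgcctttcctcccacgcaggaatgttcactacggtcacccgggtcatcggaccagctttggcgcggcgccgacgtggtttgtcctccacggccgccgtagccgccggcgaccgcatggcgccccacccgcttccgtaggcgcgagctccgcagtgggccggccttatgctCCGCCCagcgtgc
Cox7a2: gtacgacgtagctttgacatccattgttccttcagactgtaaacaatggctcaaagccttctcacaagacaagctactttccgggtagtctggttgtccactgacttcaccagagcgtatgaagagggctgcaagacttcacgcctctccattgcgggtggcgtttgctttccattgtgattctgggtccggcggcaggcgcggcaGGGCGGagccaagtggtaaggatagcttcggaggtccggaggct
Atp5d: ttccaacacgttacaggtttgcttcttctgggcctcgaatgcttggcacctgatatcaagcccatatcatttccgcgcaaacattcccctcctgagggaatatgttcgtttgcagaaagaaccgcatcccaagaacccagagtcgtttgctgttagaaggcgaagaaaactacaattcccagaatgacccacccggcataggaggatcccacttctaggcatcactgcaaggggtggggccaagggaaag
The single match in Cox5a and the single match in Cox7a2 are GC boxes, and Atp5d has no match in these bases.

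Cox8a and Cox8b are shown as an isoform pair of which only the widely expressed form had a peak. Cox8a maps to chr19:7217617-7217866 and Cox8b to chr7:140900447-140900696, both on the minus strand.
Cox8a: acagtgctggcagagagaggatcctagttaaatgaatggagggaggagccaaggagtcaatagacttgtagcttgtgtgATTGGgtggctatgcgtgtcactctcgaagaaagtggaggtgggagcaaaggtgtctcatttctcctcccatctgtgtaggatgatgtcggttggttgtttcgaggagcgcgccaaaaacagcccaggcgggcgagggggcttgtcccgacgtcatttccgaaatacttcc
Cox8b: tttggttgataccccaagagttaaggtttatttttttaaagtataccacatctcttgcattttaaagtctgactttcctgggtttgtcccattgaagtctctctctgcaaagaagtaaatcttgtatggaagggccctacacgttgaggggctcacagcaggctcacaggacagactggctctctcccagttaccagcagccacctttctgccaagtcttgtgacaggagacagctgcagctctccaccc
The capitals in Cox8a are a CCAAT box on the opposite strand. The ratio of observed to expected CpG in the 300 bases around the start was 0.842 in Cox8a and 0.115 in Cox8b, the lowest of the 87 promoters of the set.

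Atp5k and Sdhaf3 are shown for motif matches before the start. Among called genes with a single start in the table, they had the highest mean percentile of the peak with a match in the printed bases before the start, to NRF1 and to the ETS motif respectively. Atp5k, a small subunit of the ATP synthase, maps to chr5:108434400-108434649 (minus strand). Sdhaf3, an assembly factor of complex II, maps to chr6:6955768-6956017 (plus strand).
Atp5k: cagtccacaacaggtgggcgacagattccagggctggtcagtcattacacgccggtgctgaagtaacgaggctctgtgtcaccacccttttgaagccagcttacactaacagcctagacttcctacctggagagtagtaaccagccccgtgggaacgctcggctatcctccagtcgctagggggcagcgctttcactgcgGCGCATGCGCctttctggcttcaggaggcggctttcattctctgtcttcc
Sdhaf3: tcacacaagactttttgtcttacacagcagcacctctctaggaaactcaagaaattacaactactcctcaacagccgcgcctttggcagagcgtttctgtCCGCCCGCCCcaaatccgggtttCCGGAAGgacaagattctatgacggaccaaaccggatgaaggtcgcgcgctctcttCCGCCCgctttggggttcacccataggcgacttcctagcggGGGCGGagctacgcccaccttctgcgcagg
The capitals in Atp5k are a palindromic NRF1 site that matches on both strands. The capitals in Sdhaf3 are 4 GC boxes and 1 ETS match.

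The deposited data were 1 peak list per library, each called separately, and held 23809 to 73160 peaks on chromosomes 1 to 19 and X. Both replicate 3 lists were made differently from the other 4. They held 23809 and 27167 peaks, their scores were 10 times the −log10 p in 100% of peaks where the other lists used the −log10 q, and their median fold enrichment was 7.85 and 8.31 against 4.40 to 5.32. Fold enrichment, the peak's height over the background that the peak caller modelled, was therefore compared only as a percentile among all peaks of the same list. Sequencing depth is not recorded in the lists. Of 10 stem cell markers, between 2 and 10 had a gene-end peak in a library, with the fewest in replicate 3. Apart from Ly6a, all had one in replicates 1 and 2 of both groups. In Dek_fl replicate 3 only Kit and Meis1 had one, and in Dek_cKO replicate 3 also Procr, Mecom and Hlf. Kit and Meis1 had one in every library and Ly6a, which encodes Sca-1, in 1 library. Elane, Cdh5 and Myh6, markers of granulocytes, endothelium and heart muscle, had none in any library, while Cd3d, Kdr, Epor, Ckm and Actn2, of T cells, endothelium, red cells and muscle, had a peak in every library. At Cd3d and Ckm that peak lay away from the RefSeq start, which had no peak within 1 kb in any library.

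A check of the labels went against them at Tek, the gene whose promoter gives the Tie2-Cre transgene its name. The strongest gene-end peak at Tek had a −log10 p of 260, 576 and 56.6 in the libraries labelled Dek_fl and of 32.9, 20.5 and 8.59 in those labelled Dek_cKO. A further peak in the body of Tek within 10 kb was listed in the 3 libraries labelled Dek_fl and in none of those labelled Dek_cKO, although the labels place the transgene in Dek_cKO. The cause was not tested. Dek itself was called at a gene end in every library, which checks nothing, since no source used here gives the position of the floxed part. Group names below are those of the labels. Were they exchanged, each difference between the groups would change its sign and keep its size.

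Most respiratory chain genes lay at open chromatin in every library. A peak within 1 kb of an annotated gene end was listed for 88 of the 100 genes in all 6 libraries, against 48.8 percent of all protein-coding genes. In the single libraries the share was 91%, 92% and 89% for Dek_fl and 91%, 92% and 88% for Dek_cKO. The mean was 90.7% ± 1.53 (SD, n = 3) in Dek_fl and 90.3% ± 2.08 (SD, n = 3) in Dek_cKO, and the ranges overlapped. Over all protein-coding genes it was 60.9% ± 8.49 and 62.3% ± 8.97 (SD, n = 3 each). The difference between groups was 0 percentage points within replicates 1 and 2 and -1 within replicate 3. The replicate 3 libraries, with their shorter lists, called 51.4% and 52.0% of all protein-coding genes, against 63.6% to 67.7% in the other 4, while the share of respiratory chain genes was 88% and 89% there and 91% to 92% in the other 4.

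**Figure D1:**
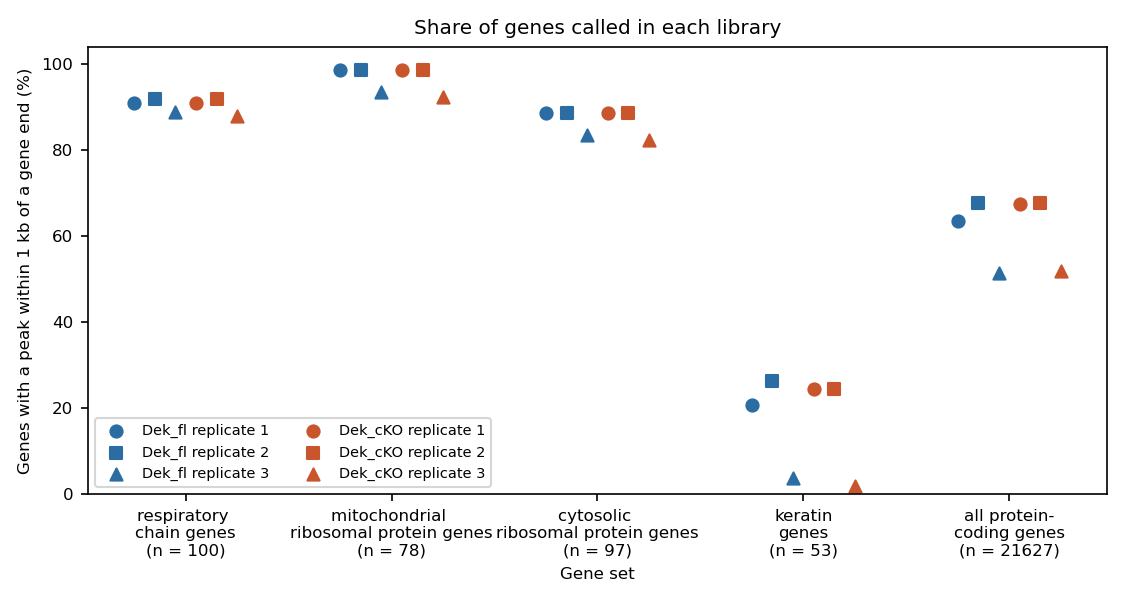
Percent of genes with a peak within 1 kb of a gene end (y axis) in each of the 6 libraries, for respiratory chain genes and 4 comparison sets (x axis), with blue for Dek_fl, orange for Dek_cKO and the marker shape giving the replicate. The respiratory chain libraries sit between 88% and 92%, while all protein-coding genes range from 51.4% to 67.7%.

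Other housekeeping families of the mitochondrion and the ribosome were called about as often. Of 78 mitochondrial ribosomal protein genes, 72 (92.3%) were called at a gene end in every library, as were 78 of 97 cytosolic ribosomal protein genes (80.4%). Keratin genes, which are expressed in epithelia, had such a peak in 1 of 53. The difference of these shares from the respiratory chain was not tested. No respiratory chain gene had a peak in the 3 libraries of 1 group and in none of the other. Over all protein-coding genes, the background of that pattern was 0 percent for Dek_fl alone and 0.0139 percent for Dek_cKO alone.

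All 5 complexes were represented. Complex I, the NADH dehydrogenase and entry point for most electrons, had a peak in all 6 libraries at 38 of 41 subunit genes and at 8 of 8 assembly factor genes. Complex II, the succinate dehydrogenase of the citric acid cycle, had one at 4 of 4 subunit genes and 4 of 4 assembly factor genes. Complex III, the ubiquinol-cytochrome c reductase, had one at 8 of 8 genes. Complex V, the ATP synthase, had one at 16 of 17. Complex IV, the cytochrome c oxidase, stood lowest with 10 of 18, and most of its missing genes were tissue-restricted isoforms or genes whose start lies away from the annotated ends.

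The peaks ranked high within their lists. Among called genes, the median percentile of fold enrichment was 91.5, 90.6 and 79.3 in Dek_fl and 91.4, 94.7 and 82.9 in Dek_cKO. The same medians for all called protein-coding genes were 79.7, 75.4 and 69.6, and 76.7, 78.2 and 70.2. By −log10 p, the caller's significance, the called respiratory chain genes had medians of 93.5, 95.6 and 76.3, and 95.3, 95.8 and 82.3. All called protein-coding genes had 85.4, 88.6 and 73.1, and 88.6, 88.5 and 74.3. By fold, the medians of mitochondrial ribosomal protein genes were 93.2, 93.3 and 82.8 in Dek_fl and 94.6, 95.3 and 79.4 in Dek_cKO. Those of cytosolic ribosomal protein genes were 88.7, 84.0 and 72.2, and 85.0, 88.7 and 73.5. The class medians of the mean percentile ran from 86.0 for complex I assembly factors to 94.9 for the 4 complex II subunits.

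**Figure D2:**
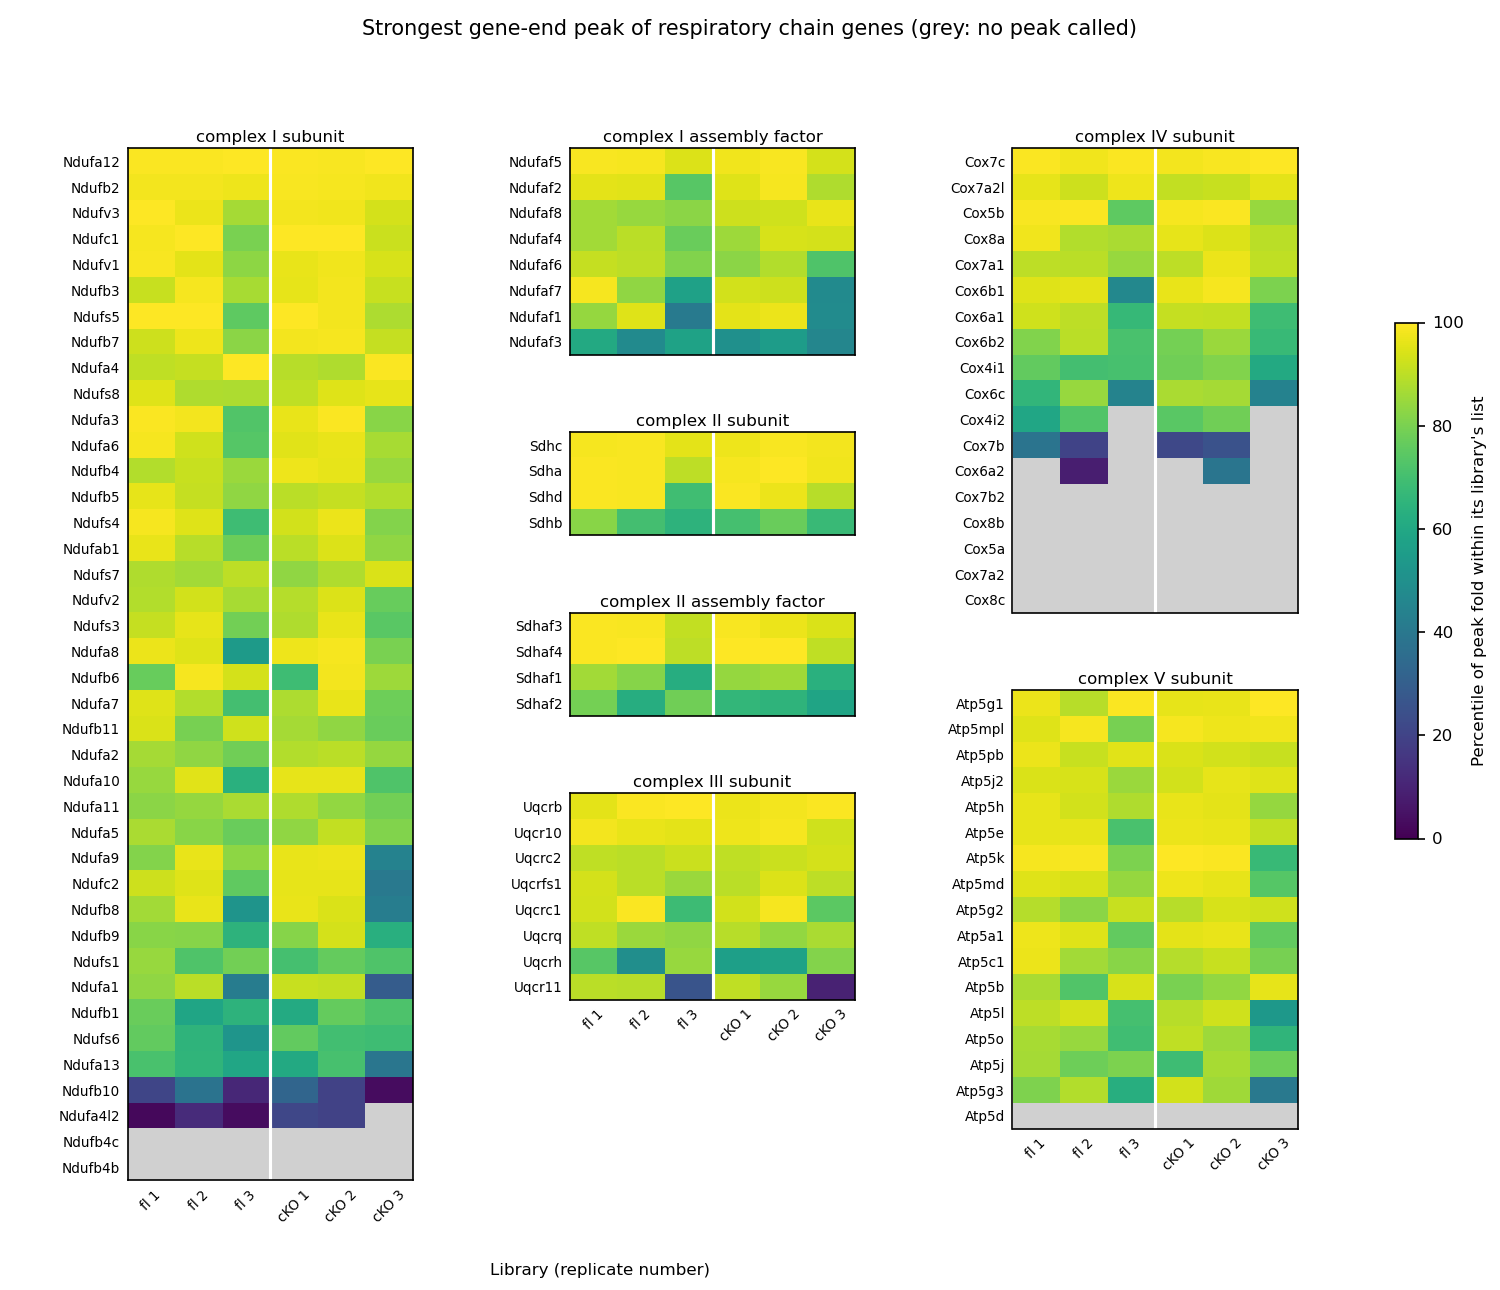
Percentile of fold enrichment of the strongest gene-end peak within its own library's list (colour, 0 to 100) for genes of the set (rows, by complex) in 6 libraries (columns), with grey where no peak was called. Most rows are yellow or green in all columns, the replicate 3 columns are darker for a number of genes, and the grey cells gather in complex IV.

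At complex I, Ndufa12, an accessory subunit, had the highest mean percentile of fold of the set. Its percentiles were 99.3, 99.4 and 99.9 in Dek_fl and 99.6, 98.9 and 99.7 in Dek_cKO, so the groups overlapped within the top of the lists; the peak also lies at an end of Nr2c1. Ndufb2, another accessory subunit, followed with 98.2, 98.2 and 97.6, and 99.1, 98.7 and 97.8. Ndufv1, which carries the NADH-binding site and the flavin, had 98.9, 95.7 and 82.9 in Dek_fl and 96.5, 97.8 and 93.9 in Dek_cKO. Ndufs1, the largest iron-sulfur subunit, ranked lower at 84.7, 72.6 and 78.8, and 70.7, 76.2 and 72.4. In none of these genes did the groups separate.

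The lowest mean percentile of a gene called in all 6 libraries was also at complex I. Ndufb10, an accessory subunit of the membrane arm (chr17:24722060-24724423), had percentiles of 20.8, 38.2 and 11.2 in Dek_fl and 32.6, 19.8 and 3.23 in Dek_cKO. Ndufaf3, Ndufa13 and Uqcr11 of complex III were also among the lowest, with means of 52.9, 61.2 and 64.9.

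Of the 4 complex II subunits, Sdha, Sdhc and Sdhd had high-ranking peaks and Sdhb a lower one. Sdha, the flavoprotein that oxidises succinate, had percentiles of 99.6, 99.1 and 90.2 in Dek_fl and 98.5, 99.6 and 97.9 in Dek_cKO. Sdhb, the iron-sulfur subunit, had 82.3, 70.0 and 64.8, and 70.5, 77.1 and 67.9, the lowest of the 4. Sdhc, a membrane anchor, had 98.8, 99.1 and 96.1, and 97.5, 98.8 and 98.2. Sdhd, the other anchor, had 99.5, 99.0 and 69.5, and 99.2, 97.1 and 89.4. The values of the groups overlapped at each of these genes.

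At complex III, Uqcrb, the ubiquinone-binding subunit, had 95.9, 99.5 and 99.7 in Dek_fl and 97.1, 98.2 and 99.3 in Dek_cKO. Uqcrfs1, the Rieske iron-sulfur protein, had 93.6, 89.7 and 84.9, and 89.7, 94.7 and 90.2. Uqcrc1, a core protein, had 93.0, 99.2 and 68.7, and 93.3, 98.5 and 74.7, with replicate 3 low in both groups.

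At complex IV, Cox7c, a small structural subunit, had 99.5, 97.8 and 99.4 in Dek_fl and 98.2, 99.1 and 99.9 in Dek_cKO. Cox4i1, a large nuclear-encoded subunit with a regulatory role, had 76.1, 70.3 and 70.9, and 78.2, 81.0 and 60.7, at a peak shared with Emc8 and Gm27021. At complex V, Atp5a1, the alpha subunit of the catalytic head, had 97.5, 95.2 and 75.9, and 96.1, 96.9 and 75.9. Atp5b, the catalytic beta subunit, had 87.2, 72.7 and 94.0, and 79.9, 83.9 and 96.4. The groups overlapped at all 4 genes.

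The gene-end rule left 12 genes without a peak in all 6 libraries, 8 of them without any, against 30.3 percent of all protein-coding genes without any. Of these, 3 widely expressed genes were open at a start site that the windows around the annotated ends do not reach. The start of Cox5a, which encodes a complex IV subunit that pairs with Cox4i1 during assembly, lies 3904 bp inside the annotated gene (chr9:57517328-57532427). The start of Cox7a2, the widely expressed form of a small complex IV subunit, lies 11569 bp inside (chr9:79755241-79771422). Atp5d, the delta subunit of the ATP synthase stalk, has 2 starts in the table, 3577 and 3617 bp inside (chr10:80138698-80145828). These are the promoters printed above.

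A peak covered each of these starts in all 6 libraries. At Cox7a2 its percentile of fold was 98.6, 95.1 and 88.2 in Dek_fl and 96.7, 99.3 and 86.9 in Dek_cKO. At Cox5a it was 78.0, 62.7 and 79.6, and 64.2, 71.2 and 60.2. The summits, the highest points of the peaks, lay 31 to 110 bp after the Cox5a start and 49 to 115 bp after the Cox7a2 start.

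At Atp5d the percentile was 48.7, 41.6 and 8.12 in Dek_fl and 52.9, 57.5 and 17.3 in Dek_cKO, the weakest of the 3 in each library. Relative to the first start, its summit lay at -769, -678 and -826 bp in Dek_fl and at -55, -757 and 113 bp in Dek_cKO. The peak itself spanned the start in every library, and the summits of the groups did not separate cleanly, since Dek_cKO replicate 2 fell within the Dek_fl range.

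**Figure D3:**
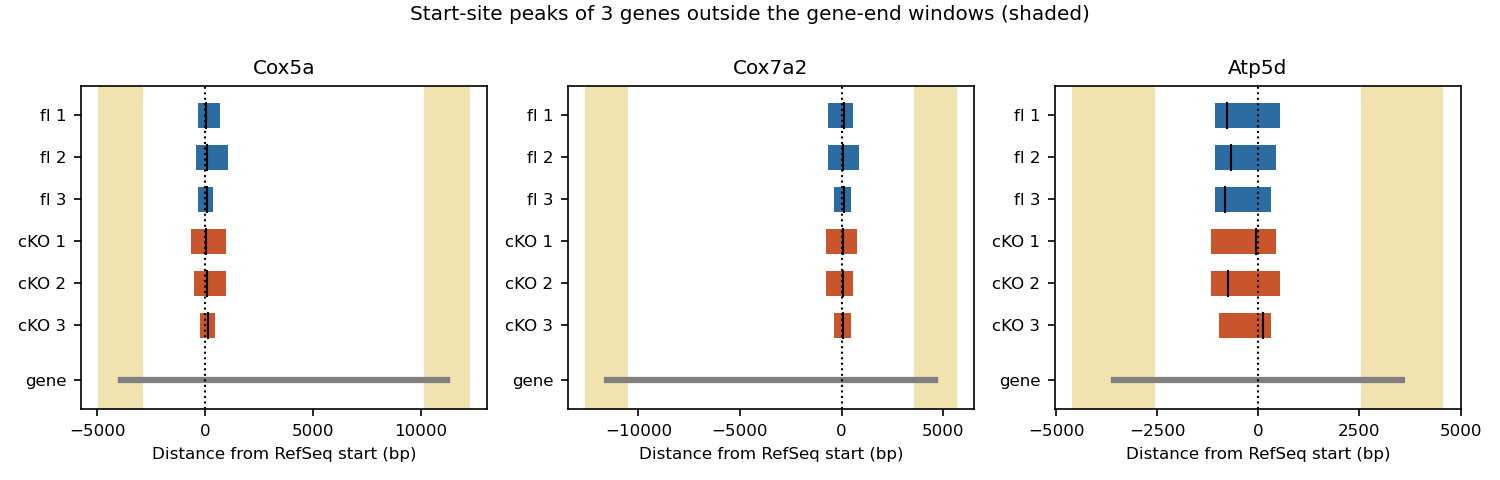
Extent of the start-site peak in each library (bars, blue for Dek_fl and orange for Dek_cKO, black tick at the summit) by distance from the RefSeq start in bp (x axis, dotted line at the start), with the annotated gene as a grey line and the 1 kb gene-end windows shaded. The peaks of Cox5a, Cox7a2 and Atp5d lie on the dotted line and outside the shaded windows.

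A start was counted as called where a peak lay within 1 kb of it. Of the genes with no gene-end peak in any library, 3 of 8 in the set (37.5%) and 379 of 6548 over all protein-coding genes (5.79%) were called at a start in all 6 libraries. Counting a gene end or a start, 91 of the 100 genes were called in every library, against 52.5 percent of all protein-coding genes, and 5 in none. By starts alone, which the promoter table gives for 82 of the 100 genes, 78 (95.1%) were called in all 6 libraries, against 51.7 percent.

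Tissue-restricted isoforms made up most of the rest. Of 8 genes fixed as such, 2 were called at a gene end in every library, 3 in 1 to 5 and 3 in none, whereas of the other 92 genes 86 had one in all 6. Cox8b, the form of muscle and brown fat (chr7:140898942-140900446), had none, and the nearest peak lay 2428 to 7994 bp from the gene, depending on the library. Its widely expressed partner Cox8a had percentiles of 97.8, 88.3 and 87.4, and 96.1, 94.9 and 89.7. Cox8c and Cox7b2, known from testis, had no gene-end peak either. A weak peak was listed within the body of Cox7b2 in Dek_fl replicate 2 and Dek_cKO replicate 1, at percentiles of 37.2 and 22.8.

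The partly called isoforms were mostly weak. Cox4i2, known from lung and for its response to low oxygen, was called in 4 libraries at percentiles of 59.1 and 72.7 in Dek_fl and 74.4 and 78.1 in Dek_cKO, and in neither replicate 3. Cox6a2, the heart and skeletal muscle form, was called only in Dek_fl replicate 2 and Dek_cKO replicate 2, at 8.44 and 38.7, where the peak also touches an end of Itgad. Ndufa4l2, which responds to hypoxia, was called in 5 libraries at 2.07, 12.2 and 3.36 in Dek_fl and 21.1 and 19.6 in Dek_cKO, at a peak shared with Stac3. Its partner Ndufa4, counted here by its symbol with complex I although the protein is known to sit in complex IV, had 90.3, 91.1 and 99.7, and 89.2, 88.2 and 99.3.

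Cox7a1 and Cox6b2 went against this pattern. Cox7a1 encodes the heart and skeletal muscle form of a complex IV subunit. A peak lay within 1 kb of its start in every library, with no end of another coding gene at the peak. Its percentiles were 90.0, 89.8 and 84.6 in Dek_fl and 90.2, 97.0 and 90.5 in Dek_cKO, and the widely expressed Cox7a2 had 86.9 to 99.3 at its start. Of the muscle markers, Ckm and Actn2 were also called at a gene end in every library, Tnnt2 in 1 and Myh6 in none. At its start, Actn2 had a peak in all 6 libraries, and Ckm, Tnnt2 and Myh6 in none. The part of other cells in the Cox7a1 peak was not tested. Cox6b2, the testis form, had 80.9, 89.7 and 71.3, and 79.0, 84.9 and 67.3, but its peak also lies at an end of Fam71e2.

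Cox7b, a widely expressed complex IV subunit on the X chromosome, was an exception among the widely expressed genes. A peak lay within 1 kb of its start in 4 libraries and in neither replicate 3. The percentiles were 38.3 and 20.2 in Dek_fl and 21.6 and 25.04 in Dek_cKO. The remaining pair, Ndufb4b and Ndufb4c, are gene models of 471 and 485 bp named as copies of Ndufb4, with no peak in any library. Their values are uncertain wherever reads map to more than a single copy. Ndufb4 itself had 88.4, 91.4 and 84.9, and 97.5, 96.2 and 84.4.

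The open chromatin of the set was centred on the starts. Taking the strongest peak within 1 kb of each start, 83.1% to 86.9% of summits lay within 200 bp of it across libraries. The share over all protein-coding starts was 60.9% to 66.4%. The median summit lay between 40.5 bp before and 3 bp after the start. The median width was 1326 to 1534 bp in replicates 1 and 2 and 700 to 729 bp in replicate 3, and the same medians over all protein-coding starts were 1206 to 1471 bp and 713 to 744 bp.

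Head-to-head neighbours were common. A start was counted as divergent when another coding gene on the opposite strand started up to 1000 bp before it or up to 200 bp into it. That held for 25 of 82 genes (30.5%), for 1543 of 17273 protein-coding genes (8.93%), and for 1443 of the 8923 whose start was called in all 6 libraries (16.2%). Among the 25 partners, 4 that bear on mitochondria or ribosomes are named here, chosen after the list was seen. Atp5j faces Gabpa, the DNA-binding subunit of GABP, Sdhd faces Timm8b, of mitochondrial protein import, and Ndufb5 and Ndufa7 face the ribosomal protein genes Mrpl47 and Rps28. At a shared promoter a peak cannot be assigned to either gene. In all, 47 of the 92 genes with a gene-end peak in any library shared it with an end of another coding gene. The same share over all protein-coding genes was not counted, so this number does not set these genes apart.

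Motif matches were counted on both strands in 300 bases, 250 before and 50 after each start. The NRF1 motif (GCGCATGCG) was found in 10 of 87 promoters of the set (11.5%), in 2.37% of all 21044 protein-coding promoters and in 4.16% of the 10464 that were called in all 6 libraries. The ETS motif of GABP (CCGGAAG) was found in 22 (25.3%), against 11.7% of all and 20% of called promoters, a smaller gap to the called ones than for NRF1, and the YY1 motif (AAGATGGCG) in 8 (9.20%), against 1.84% and 3.35%. The printed promoters of Atp5k and Sdhaf3 hold the first and the second of these. Of the 8 YY1 matches, 7 reached into the 50 bases after the start.

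The other motifs ranged from less to more frequent in the set than among called promoters, and no difference was tested. The GC box (GGGCGG) was in 46.0% of the set, 46.7% of all and 68.2% of the called promoters, so it was less frequent in the set than among called promoters. The CCAAT box was in 41.4%, 38.5% and 38.8%, the CREB motif (TGACGTCA) in 4.60%, 2.26% and 3.59%, and the TATA box (TATAAA) in 11.5%, 12.7% and 6.04%. Shorter and longer motifs overlap in places, and a match is only a match of letters. The median ratio of observed to expected CpG was 0.829 in the set, 0.574 over all promoters and 0.792 over called ones. In the 4 promoters of the set not called in all 6 libraries it was 0.383. Cox7a1 was called in all 6 with a ratio of 0.333, second lowest of the set after Cox8b.

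Peaks at promoters with and without a match ranked within a few percentile points of each other. The median of the mean percentile was 87.3 for 10 called promoters with an NRF1 match and 88.6 for 73 without, 88.3 and 87.9 with and without an ETS match, and 88.7 and 87.6 with and without a YY1 match. For the GC box it was 87.5 and 88.7, for CCAAT 88.3 and 87.9, for CREB 87.6 and 87.9, and for TATA 89.2 and 87.6. These are descriptions over promoters of the same libraries, with no test.

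The comparison of Dek_cKO with Dek_fl asked whether the rank of these open regions moved with the labelled deletion. Peaks of the 6 lists were merged where they overlapped, and the fold of each of the 19683 regions present in all 6 lists was ranked within its library and turned into a normal score, on which 0 is the median and 1 is 1 standard deviation. Of 92 such regions at respiratory chain gene ends, 0 ranked higher and 0 ranked lower in Dek_cKO by limma at an adjusted p under 0.05 (Benjamini-Hochberg over all regions), and all 92 had an adjusted p of 1. Over all regions the background was 0 percent in each direction. At an unadjusted p under 0.05 the counts were again 0 and 0, against 0.345 percent and 0.0965 percent of all regions. The median difference was -0.02 for the set and -0.02 over all regions, and 44 of the 92 differences were positive.

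With the replicate number as a block, 0 and 0 regions of the set passed the adjusted threshold, against 0.00508 percent and 0 percent, and 1 and 0 the unadjusted one, against 2.97 percent and 1.46 percent. With a term for the way the list was made, 0 and 0 passed the adjusted threshold, against 0 percent in each direction, and 2 and 0 the unadjusted one, against 2.77 percent and 1.53 percent. A miss of the threshold does not show that the regions were alike, since with 3 libraries a group the standard errors of the 92 regions were 0.28 to 0.65.

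The 5 regions of smallest p in each direction differed by 0.58 at most. For these regions, picked by p, no share of all regions is given for same-numbered pairs or for groups without overlap. Numbers 1 and 2 mark no pairing beyond the way the lists were made. Ndufaf8, an assembly factor that acts with Ndufaf5 on a core complex I subunit, had scores of 0.43, 0.31 and 0.81 in Dek_fl and 0.81, 0.78 and 1.69 in Dek_cKO. The difference was 0.58 (SE 0.35, n = 3 libraries a group, limma adjusted p 1), Dek_cKO was higher in 3 of 3 same-numbered pairs, and the region is shared with Tepsin. Without Dek_cKO replicate 3 the difference was 0.26. Atp5mpl, a small subunit of the ATP synthase, had 1.15, 1.76 and 0.68, and 1.80, 1.44 and 1.87, a difference of 0.50 (SE 0.35), which was 0.23 without Dek_fl replicate 3, 0.79 without Dek_fl replicate 2 and 0.14 by ranks of −log10 p. Cox6b1, the subunit on the outer face of complex IV, had 1.16, 1.21 and -0.30, and 1.34, 1.76 and 0.62, a difference of 0.55 (SE 0.48) in which both replicate 3 libraries lay lowest. Ndufb7 and Ndufb4, accessory subunits of complex I, differed by 0.44 and 0.41. By ranks of −log10 p the difference was 0.55 at Ndufaf8, 0.25 at Cox6b1, 0.20 at Ndufb7 and 0.19 at Ndufb4. The scores of Dek_fl and Dek_cKO overlapped at each of these 5 regions.

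On the lower side, Ndufaf6, another assembly factor of complex I, had 0.78, 0.64 and 0.75 in Dek_fl and 0.21, 0.45 and 0.34 in Dek_cKO. The difference was -0.39 (SE 0.28, limma adjusted p 1), and Dek_cKO was lower in 3 of 3 same-numbered pairs. The groups did not overlap on this score. By percentile of fold within the whole list they did, with 91.2, 90.0 and 81.1 in Dek_fl and 82.5, 88.3 and 72.5 in Dek_cKO. A region at the end of Atp5b that is also an end of Baz2a (chr10:128090773-128092706) had -1.81, -1.99 and -1.06, and -2.51, -2.05 and -1.82, a difference of -0.51 (SE 0.36), also lower in 3 of 3 pairs. The region at the Atp5b start differed by 0.05 (SE 0.54). Ndufb11, on the X chromosome and shared with Rbm10, differed by -0.47 (SE 0.38), and Ndufb10 by -0.40 (SE 0.31). Sdhaf2, shared with Cpsf7, differed by -0.43 (SE 0.37), lower in 3 of 3 pairs. By ranks of −log10 p the difference was -0.31 at Ndufaf6, -0.40 at the Atp5b end, -0.23 at Ndufb11, -0.33 at Sdhaf2 and -0.33 at Ndufb10.

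**Figure D4:**
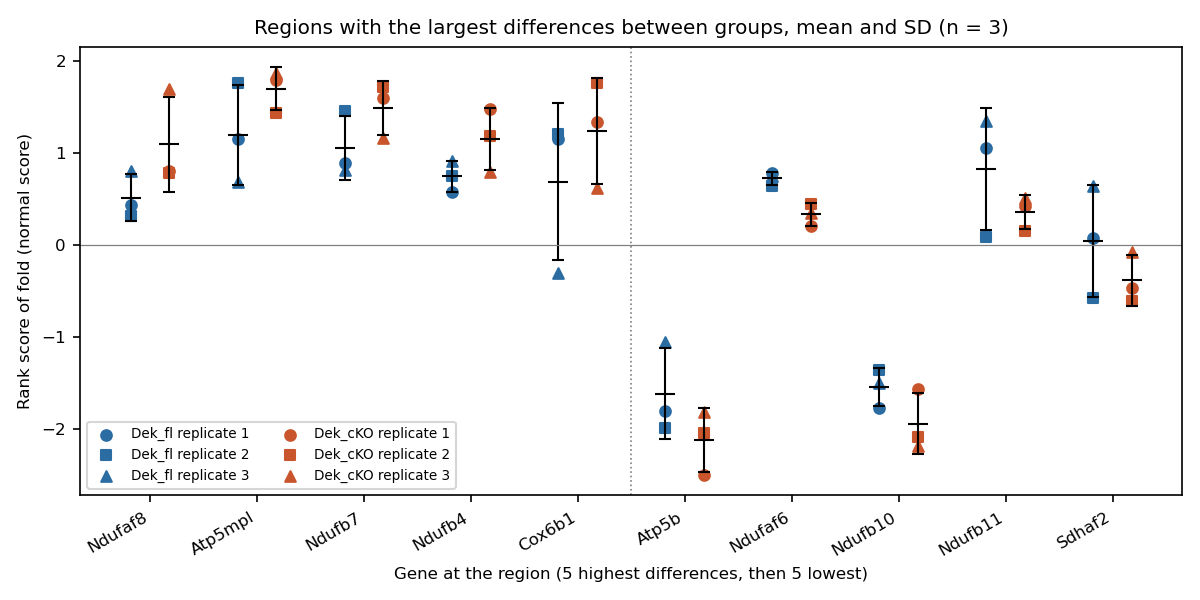
Normal score of the rank of fold (y axis) in each library (points, blue for Dek_fl and orange for Dek_cKO, shape by replicate) at the 5 regions with the smallest p in each direction (x axis), with black bars for the mean and SD of 3 libraries. The group means differ by 0.58 at most. On this score the points of the groups overlap at each of the 10 regions except Ndufaf6, where percentiles within the whole list do overlap.

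Percentiles of the strongest gene-end peak gave a like picture. Among the 88 genes called in all 6 libraries, 2 had all Dek_cKO percentiles of fold above all Dek_fl ones, Cox7a1 and Ndufaf8, against 1.61 percent of the 10548 protein-coding genes called in all 6. None had them all below, against 0.986 percent. Cox7a1 separated by a margin of 90.2 over 90.0. Ndufaf8 had 86.0, 84.4 and 82.6 in Dek_fl and 92.2, 92.6 and 96.7 in Dek_cKO. By −log10 p, 1 gene, Atp5b at its start, was higher without overlap, against 1.46 percent, and 0 lower, against 0.237 percent. These shares are near the background.

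In same-numbered pairs, Dek_cKO had the higher percentile of fold in 3 of 3 pairs at 13 of the 88 genes, against 11.7 percent, and the lower in 3 of 3 at 6, against 8.04 percent. By −log10 p the counts were 22, against 21.5 percent, and 4, against 4.11 percent.

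The replicate 3 lists gave another picture of these genes than the other 4, in both groups. By percentile within the whole list, 74 of the 88 genes were lower in replicate 3 than in the mean of replicates 1 and 2, as were 7718 of the 10548 protein-coding genes called in every library. A shorter list holds fewer weak peaks, which by itself lowers the percentile of a strong one. Ranks among the 19683 shared regions, which are the same in every list, do not carry that effect. On them the median percentile of the set was 80.0, 75.5 and 74.8 in Dek_fl and 77.6, 83.9 and 75.5 in Dek_cKO.

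On these shared ranks, 50 of the 92 regions of the set scored lower in replicate 3 and the others higher. The median absolute difference between replicate 3 and the mean of replicates 1 and 2 was 0.56, and between the group means it was 0.18. Over all shared regions these were 0.55 and 0.18. Uqcr11, a small subunit of complex III, had scores of 0.67, 0.58 and -0.90 in Dek_fl and 0.67, 0.22 and -1.67 in Dek_cKO, with replicate 3 low in both. Uqcrh, the hinge protein of the same complex, had -0.14, -1.01 and 0.90, and -0.81, -0.86 and 0.66, with replicate 3 high in both. No test was made of these differences, which rest on 2 libraries against 4.

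**Figure D5:**
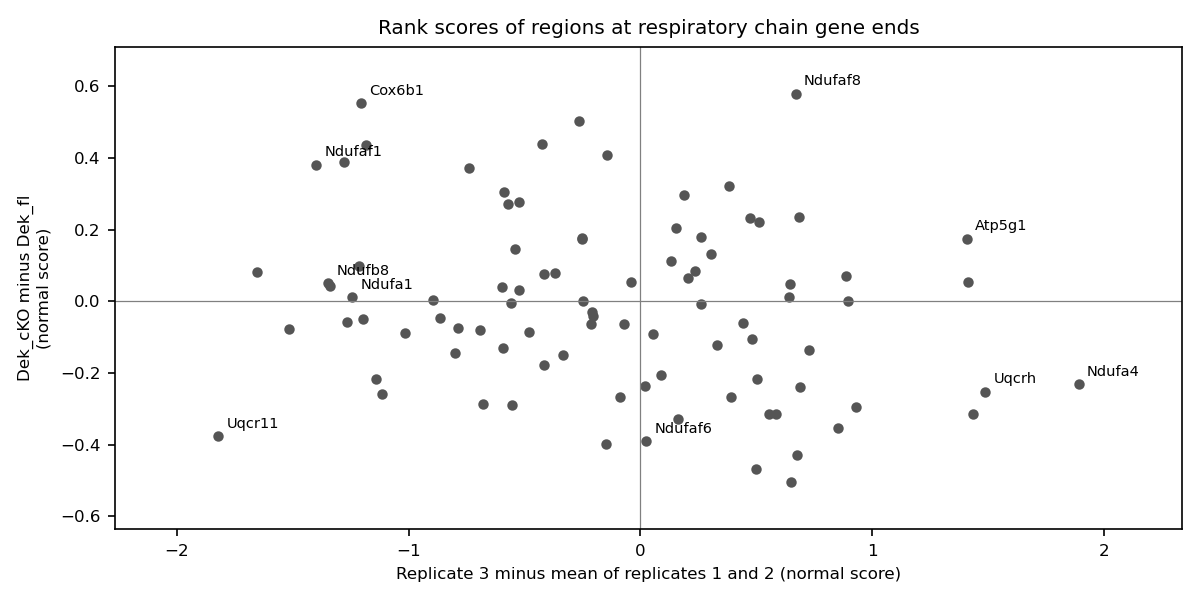
Difference in the rank score of fold between replicate 3 and the mean of replicates 1 and 2 (x axis, normal score) against the difference between Dek_cKO and Dek_fl (y axis, normal score, on another scale) for shared regions at respiratory chain gene ends (points, 10 genes named). The x axis spans from -1.82 at Uqcr11 to 1.89 at Ndufa4, while the y values stay between -0.51 and 0.58.

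Other genes of the pathway, from lists apart from the set, were called as widely. Of 35 assembly and biogenesis factors outside the symbol rule, 34 were called at a gene end in every library. The remaining gene, Atpaf2, an assembly factor of the ATP synthase, had none at its ends and a peak at its start in all 6. Of 15 genes of electron carriers and ubiquinone synthesis 13 were called in all 6. Cyct, the testis cytochrome c, had no peak at its ends or start, while Cycs, the widely expressed form, was called in every library. Pdss2, of ubiquinone synthesis, had a peak only at its start, in all 6.

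Of 13 regulators, 11 were called at a gene end in every library. The mean percentile of fold was 95.2 at Tfb1m, 91.0 at Tfb2m and 90.3 at Tfam, which act on mitochondrial DNA transcription and ribosomes, 90.2 at Esrra, 86.6 at Polrmt, the mitochondrial RNA polymerase, and 82.8 at Pprc1. It was 79.8 at Gabpa, at the promoter shared with Atp5j, 62.7 at Nrf1 and 53.4 at Yy1. The coactivators Ppargc1a and Ppargc1b, known as drivers of mitochondrial biogenesis, had the lowest values, 20.5 and 28.4. The Ppargc1a peak lay away from its start, which had no peak within 1 kb in any library. Ppargc1b has no start in the promoter table. Gabpb1, the partner of Gabpa, was called only at its start, in 6 libraries, and Polg, the mitochondrial DNA polymerase, at its ends in 4 and at its start in 6. At 62 shared regions of these 63 genes, limma ranked 0 higher and 0 lower in Dek_cKO (adjusted p threshold 0.05). The unadjusted counts were 0 and 0 as well, against 0.345 percent and 0.0965 percent of all regions. The median difference was -0.08, against -0.02 over all regions and -0.06 over regions at protein-coding gene ends. With the replicate block the unadjusted counts were 1 higher and 1 lower, against 2.97 percent and 1.46 percent. With the list term they were also 1 and 1, against 2.77 percent and 1.53 percent.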

How the data were processed

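ATAC-seq peaks of 6 libraries were analysed. The submitters' processing notes name MACS2, Bowtie2, Picard and the build mm10, with no versions; whether reads were shifted for Tn5 is not stated there. Each deposited list gives a score, a fold enrichment (a ratio), and the −log10 p and −log10 q of each peak; peaks were called per library. Replicate 3 lists carry another score and a stricter lowest p in the deposited values.

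Genes came from the RefSeq gene table and starts from its promoter table, which matched 82 of 100 genes. A gene was called where a peak overlapped a window of 1000 bp on either side of a gene end by at least 1 bp. Its strongest peak by −log10 p gave the percentiles. Starts were called in the same way, by a window of 1000 bp on either side of the start. Overlapping peaks were merged into 84592 regions, of which 19683 were in all 6 lists. Normal scores of fold ranks were fitted with limma 3.58.1 (R 4.3.3), without a block, with Benjamini-Hochberg adjustment over all regions at 0.05; scripts for this were tested on simulated data. Same-numbered libraries deviated together (correlations of 0.27, 0.52 and 0.74, each above 0.1), which by the rule used pairs them, and the replicate block was fitted as an alternative. Among replicates 1 and 2, differently numbered libraries correlated as much (0.31 and 0.57), so the number there marks no pairing beyond the way the lists were made. The labels give 3 libraries a group, while the series' design text speaks of duplicates.

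The symbol rule and the lists were chosen with earlier results of these data known. Named were genes not called in all 6 libraries, the 5 highest and lowest by mean percentile, the 5 regions of smallest p in each direction, core subunits, isoform pairs and regulators, except for some genes whose values are not reported here; other genes named, those of divergent pairs and of the replicate 3 comparison among them, were chosen after their values were seen. Alternatives were other windows, thresholds, rank measures, equal-length lists, the block, a list term and leaving out each library. The printed promoters were chosen after the calls were seen.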

Additional observations from a re-analysis of the deposited data

How the results depend on the processing

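With the windows, thresholds, equal-length lists, summit rule and starts tried, the difference in the share of genes called stayed within -1.33 to 0 percentage points. Leaving out each library in turn gave -1.17 to 0.833. The number of genes called in all 6 libraries was 84 with a −log10 q of at least 10 and 85 with equal-length lists. By starts alone it was 78 of 82, so the missing Cox5a, Cox7a2 and Atp5d depend on the rule for ends. Leaving out each library in turn, 88 to 89 genes were called in every library that remained. That count cannot fall below the count over all 6, so it is no test of stability.

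In the rank test, 0 and 0 regions of the set passed the adjusted threshold under every alternative run. With the replicate block the median difference was -0.02 and the difference in the share called was -0.333 points, as without it. Every replicate number occurs in both groups, so neither the block nor the list term can change such a difference, only its standard error. At the adjusted threshold the block changed no call of the set. Leaving out each library in turn gave a median difference of -0.08 to 0.07, so its sign is not fixed. At Ndufaf8 the range was 0.26 to 0.74, at Atp5mpl 0.23 to 0.79, at Ndufb7 0.31 to 0.64, at Ndufb4 0.24 to 0.56, at Atp5b -0.70 to -0.23, at Ndufaf6 -0.45 to -0.33 and at Ndufb10 -0.58 to -0.31. At Cox6b1 the range was 0.06 to 0.83, at Sdhaf2 -0.74 to -0.12 and at Ndufb11 -0.84 to -0.19. The values nearest 0 at Cox6b1, Atp5b, Ndufb11, Sdhaf2 and Atp5mpl came without Dek_fl replicate 3, and at Ndufaf8 without Dek_cKO replicate 3. Some alternatives gave no value for a named region. These were equal-length lists at Atp5b and Ndufb10, and a −log10 q of at least 10 at Ndufb10. Joining peaks by summits within 250 bp gave none at Atp5b and Sdhaf2. Regions at starts were an alternative chosen after seeing the data, with a median of -0.0025. Depth is not recorded in the lists, so a gene without a peak is not shown to be closed.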
